A study of Zea mays with 21 samples.

Results

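The 7 genes described here encode enzymes of flavonoid and anthocyanin synthesis in maize, and were taken by gene ID from a table of 50142 gene IDs, with the symbols that go with the list. They are the chalcone synthase genes c2 (gene:Zm00001d052673) and whp1 (gene:Zm00001d007403), the chalcone isomerase gene chi1 (gene:Zm00001d034635), the flavonoid 3′-hydroxylase gene pr1 (gene:Zm00001d017077), the dihydroflavonol reductase gene a1 (gene:Zm00001d044122), the anthocyanidin synthase gene a2 (gene:Zm00001d014914) and the flavonoid glucosyltransferase gene bz1 (gene:Zm00001d045055). All 7 IDs were found in the table. The files do not pair IDs with names, and 0 of the 50142 IDs matched the reference gene table, so the regulators of the pathway and its other enzymes, which were listed by symbol, were not analysed here. Genome positions and sequences of the 7 genes were not used here for the same reason.

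RNA was measured in zb10, a zebra-leaf mutant in which, by the series title and design, the plastid terminal oxidase gene is mutated, and in wild type (WT). The 7 groups had 3 libraries each. White and green sections of zb10 leaf at the stage labelled V4 were kept apart, beside WT V4 leaf. The others were zb10 and WT leaf at the stage labelled V9, and zb10 and WT endosperm at 16 days after pollination. The labels name no allele, background line or treatment beyond genotype and stage, and no leaf section at V9. The stated aim concerned carotenoid and alternative oxidase genes, so the flavonoid genes were not themselves a stated question. Library totals ran from 28237880 to 53092962 counts, apart from 123050963 in WT V9 replicate 1. The white-section library numbered 3 stood apart from the other white libraries, with 11.9% of its counts in its 50 most abundant genes against 17.3% and 17.4%.

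Flavonoid synthesis starts when chalcone synthase joins a phenylpropanoid precursor with malonyl units, and chalcone isomerase closes the product into a flavanone. The hydroxylase encoded by pr1 adds a hydroxyl group to the B ring, which shifts maize pigment toward cyanidin types. The reductase of a1, the synthase of a2 and the glucosyltransferase of bz1 then carry the intermediates to coloured, stable anthocyanins, while the earlier steps also feed flavonols and flavones. In leaves these compounds are known as light screens and antioxidants, and in kernels the anthocyanins colour the aleurone.

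Levels are given in CPM, counts brought to a common library total with trimmed-mean (TMM) factors over the 21 libraries. CPM are not corrected for gene length, so they are compared between samples and not between genes. Fold changes, standard errors (SE) and adjusted p-values come from edgeR's quasi-likelihood test across all genes tested, and a gene is called where the adjusted p (Benjamini-Hochberg) is under 0.05.

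**Figure D1:**
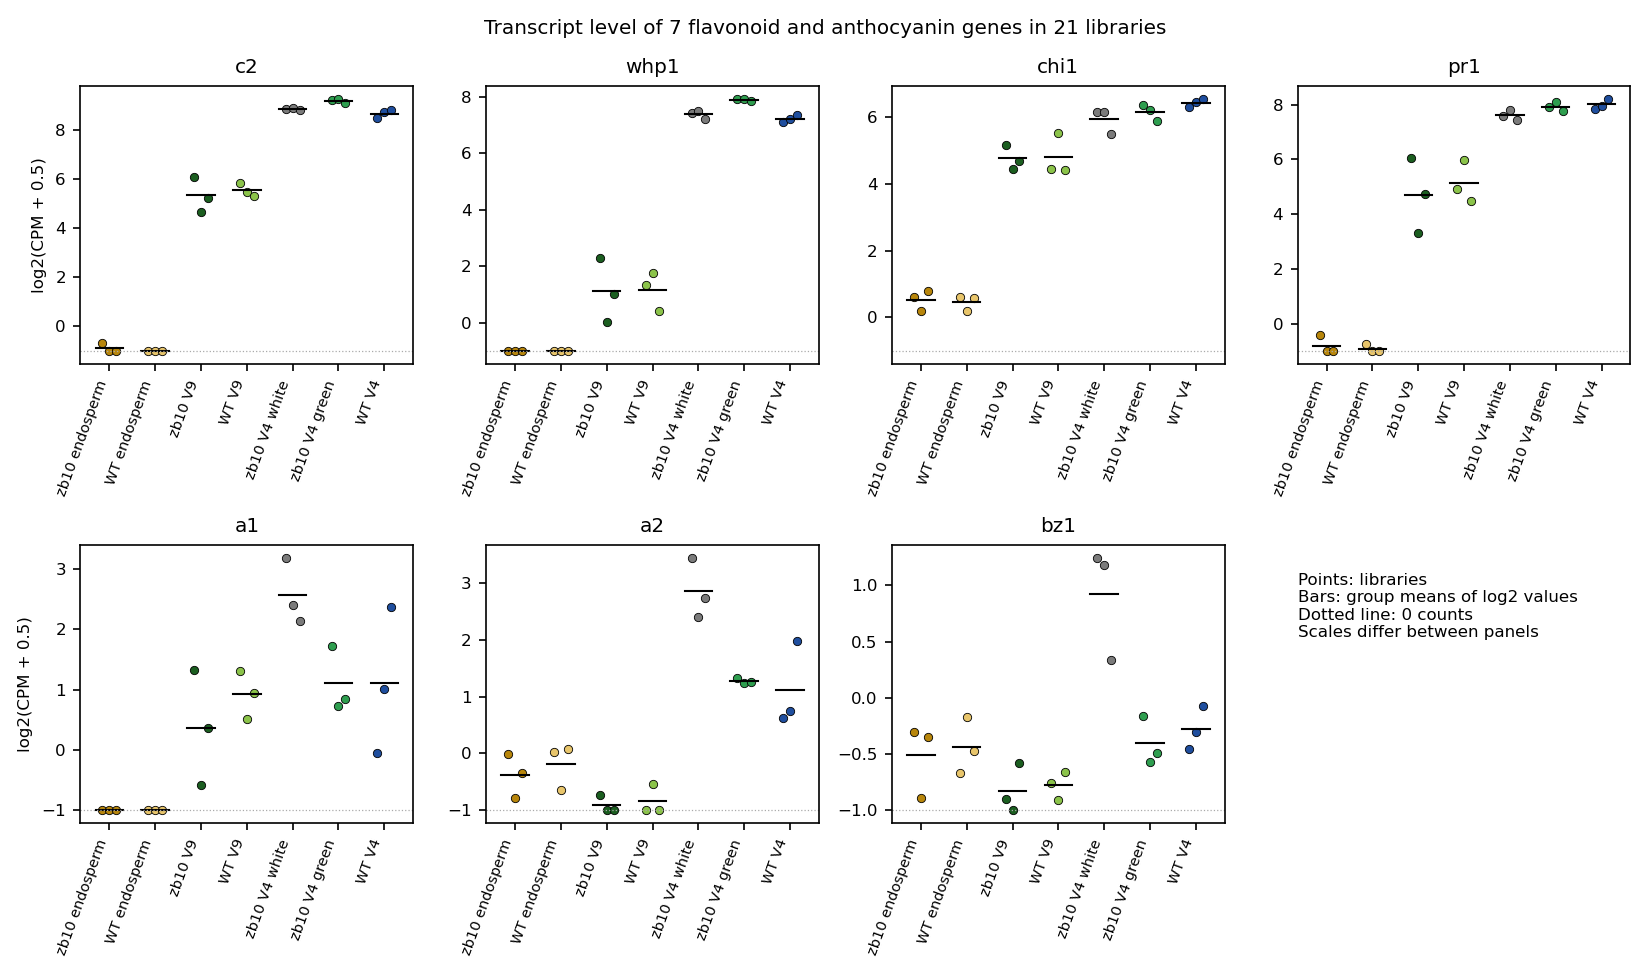
Level of each gene on a log2(CPM + 0.5) scale, 1 panel per gene, with 1 point per library and a bar at the mean of the 3 libraries of a group. The chalcone synthase, chi1 and pr1 points are high at V4, lower at V9 and near 0 counts in endosperm for all but chi1, while a1, a2 and bz1 peak in the white section of zb10 V4 leaf.

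The white section of zb10 V4 leaf held more a2 and bz1 transcript than WT leaf, and neither chalcone synthase gene, chi1, pr1 nor a1 passed the test. The level of a2 was 10.5, 4.80 and 6.23 CPM in the white libraries, against 1.05, 1.18 and 3.46 CPM in the WT libraries. All white libraries lay above all WT libraries, and WT replicate 3 was well above the other WT libraries. The log2 fold change of a2 was 1.93 (SE 0.45, adjusted p = 0.0085), a 3.82-fold difference. For bz1, which adds the sugar that stabilises the pigment, the white libraries had 1.88, 1.77 and 0.761 CPM and the WT libraries 0.230, 0.310 and 0.450 CPM. These values rest on 157 counts over the white libraries and 36 over the WT libraries, and the groups did not overlap, with white replicate 3 lowest among the white libraries. The log2 fold change was 2.16 (SE 0.52, adjusted p = 0.010), a 4.46-fold difference. Both calls held on leaving out each library in turn (adjusted p of 0.0011 to 0.037 for a2, and of 0.0065 to 0.043 for bz1), and both were lost when all 21 libraries were fitted together (adjusted p = 0.098 for a2 and 0.073 for bz1). In bulk tissue, more cells of a type and more RNA per cell cannot be told apart.

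Between a2 and its substrate supply stands a1, whose values pointed the same way without passing. Its level was 8.65, 4.80 and 3.89 CPM in the white libraries and 0.459, 1.52 and 4.69 CPM in WT. WT replicate 3 fell inside the range of the white libraries, and the groups overlapped through that library. The log2 fold change was 1.39 (SE 0.67, 95% interval -0.09 to 2.88, adjusted p = 0.14). Without WT replicate 3 it was 2.57 (adjusted p = 0.016), the 1 call of a1 among 15 alternatives. It fell to 0.92 without WT replicate 1 (adjusted p = 0.27) and to 0.98 without white replicate 1 (adjusted p = 0.35). WT replicate 3 was the highest WT library for each of the 7 genes, and the gap to the other WT libraries was, relative to level, widest for a1 and a2.

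For the enzymes upstream, the white section lay closer to WT. The level of c2 was 459, 469 and 442 CPM in the white libraries, against 357, 415 and 439.7 CPM in WT. Although the ranges did not touch, the log2 fold change was 0.19 (SE 0.12, 95% interval -0.07 to 0.45, adjusted p = 0.25). The other chalcone synthase gene, whp1, had 172, 181 and 150.3 CPM in the white libraries, against 139, 149 and 164 CPM in WT. Its ranges overlapped, with a log2 fold change of 0.17 (SE 0.11, 95% interval -0.06 to 0.41, adjusted p = 0.25). The chi1 level was 69.3, 70.2 and 44.1 CPM in the white libraries and 78.0, 85.7 and 92.3 CPM in WT. White replicate 3 was far below the others, and no white library reached a WT library. With a log2 fold change of -0.47 (SE 0.18) chi1 missed the threshold (adjusted p = 0.070), as did pr1 with -0.39 (SE 0.14, adjusted p = 0.062). The level of pr1 was 191, 223 and 172 CPM in the white libraries and 231, 246 and 298 CPM in WT, again without overlap. DESeq2 called both lower (adjusted p = 0.041 for chi1 and 0.024 for pr1). Without white replicate 3, the log2 fold changes over WT were 2.02 for a2 and 2.46 for bz1, both still called (adjusted p = 0.015 and 0.0065), and -0.28 for chi1 (adjusted p = 0.15) and -0.31 for pr1 (adjusted p = 0.14).

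In all, 2 of the 7 genes were called in the white section, both higher. Among all 26871 genes tested 31.5% were called and 16.6% were called higher, so a count of 2 in 7 is near the background and says nothing about the list as a whole. The median log2 fold change over the 7 genes was 0.19, and that over all genes was -0.00038.

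The green section of zb10 V4 leaf carried the highest chalcone synthase levels of any group. The level of whp1 was 246, 242 and 232 CPM in the green libraries and 139, 149 and 164 CPM in WT. Every green library was above every WT library, by more than the spread within either group. The log2 fold change of whp1 was 0.67 (SE 0.11, adjusted p = 0.022), a 1.59-fold difference. With any 1 of the 6 libraries left out, whp1 no longer passed (adjusted p from 0.056 to 0.13), nor did it with all 21 libraries in the fit (adjusted p = 0.78), while on leaving out single libraries the log2 fold change stayed between 0.60 and 0.73. The other chalcone synthase gene, c2, had 583, 613 and 535 CPM in the green libraries and 357, 415 and 439.7 CPM in WT. The ranges did not overlap, and c2 missed the threshold with a log2 fold change of 0.52 (SE 0.12, 95% interval 0.25 to 0.78, adjusted p = 0.091). With DESeq2 it was called (adjusted p = 9.6e-05).

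The genes downstream of chalcone synthase showed smaller or less certain differences in green tissue. The level of chi1 was 80.6, 72.1 and 57.9 CPM in the green libraries and 78.0, 85.7 and 92.3 CPM in WT, with a log2 fold change of -0.28 (SE 0.18, adjusted p = 0.57). For pr1 the values were 238, 274 and 215 CPM in the green libraries and 231, 246 and 298 CPM in WT, giving -0.09 (SE 0.14, adjusted p = 0.87). Both genes overlapped between the groups. The level of a2 was 2.0, 1.86 and 1.90 CPM in the green libraries, close together and inside the wide WT range of 1.05 to 3.46 CPM. Its 95% interval for the log2 fold change ran from -0.98 to 1.02, that of a1 from -1.86 to 1.17 and that of bz1 from -1.56 to 0.86, so changes of about the size seen in the white section for a2 and bz1 lie outside these intervals. Of the 7 genes 1 was called in the green section, where 0.763% of all genes were called and 0.417% were called higher. The median log2 fold change was -0.09 over the 7 genes and 0.0073 over all genes. White and green sections were set against the same 3 WT libraries, so these changes are not independent of each other.

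**Figure D2:**
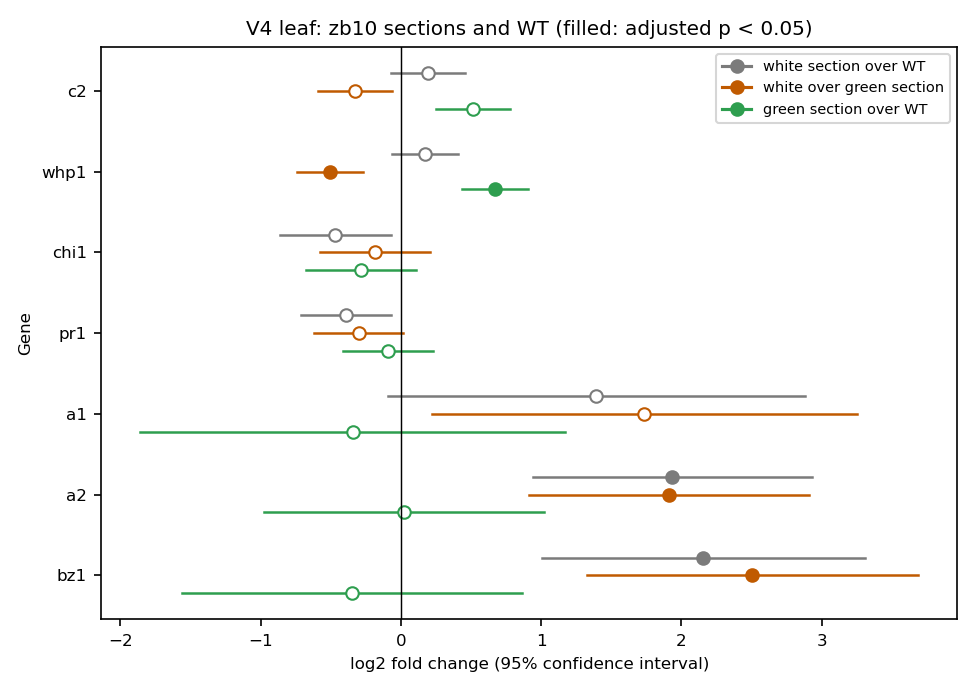
Log2 fold changes with 95% confidence intervals for the 7 genes at V4, for the white section over WT, the white over the green section and the green section over WT (filled symbols, adjusted p under 0.05). Where the white section is on top, the a2 symbols lie near 2 and those of bz1 at 2.16 over WT and 2.51 over the green section. The whp1 symbol lies at 0.67 for the green section over WT.

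Set against the green section of the same mutant, the white section was higher in a2 and bz1 and lower in whp1. The level of a2 was 10.5, 4.80 and 6.23 CPM in the white and 2.0, 1.86 and 1.90 CPM in the green libraries, and its log2 fold change was 1.91 (SE 0.45, adjusted p = 0.012). That of bz1 was 1.88, 1.77 and 0.761 CPM in the white and 0.394, 0.174 and 0.211 CPM in the green libraries, with a log2 fold change of 2.51 (SE 0.53, adjusted p = 0.0073). Neither gene overlapped between the sections. For a1 the white libraries had 8.65, 4.80 and 3.89 CPM and the green libraries 2.83, 1.16 and 1.29 CPM, also without overlap, and a1 missed the threshold (log2 fold change 1.74, SE 0.68, adjusted p = 0.091). It was called in 2 of 15 alternatives, by DESeq2 (adjusted p = 0.030) and with the 2 sections alone in the fit (adjusted p = 0.027). It was not called on leaving out any single library (adjusted p from 0.086 to 0.24) or with all 21 libraries in the fit (adjusted p = 0.18).

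In the same comparison whp1 averaged 168 ± 15.8 CPM in the white and 239.8 ± 7.20 CPM in the green section (SD, n = 3 each), a log2 fold change of -0.50 (SE 0.11, adjusted p = 0.0071). The difference was larger than the spread within either section. The c2 mean was 456 ± 13.4 CPM in the white and 577 ± 39.6 CPM in the green section, and the log2 fold change of -0.33 (SE 0.12) did not pass (adjusted p = 0.071). For chi1 and pr1 the log2 fold changes were -0.18 (SE 0.18, adjusted p = 0.49) and -0.30 (SE 0.14, adjusted p = 0.16). In this comparison 2 of the 7 genes were called higher and 1 lower, against 13.5% and 10.9% of all genes (24.4% in either direction). Each of the 3 calls held without white replicate 3, at log2 fold changes of -0.43 for whp1, 2.0 for a2 and 2.81 for bz1. With all 21 libraries in the fit, whp1, a2 and bz1 lost their calls (adjusted p = 0.52, 0.12 and 0.053).

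At V9 no difference between zb10 and WT leaf was detected in the pathway. The level of c2 was 66.9, 24.9 and 37.1 CPM in the zb10 libraries and 55.7, 43.6 and 39.2 CPM in WT. That of pr1 was 66.3, 9.51 and 26.4 CPM in zb10 and 29.6, 62.5 and 21.9 CPM in WT. The zb10 libraries enclosed the WT range for both genes. Among the zb10 libraries, replicate 1 was highest and replicate 2 lowest for c2, whp1, chi1, pr1 and a1. The coefficient of variation of c2 was 50.2% in zb10 V9 and 18.5% in WT V9 leaf, against 2.93% to 10.6% in the V4 groups, and whp1 and pr1 also varied more in both V9 groups than in any V4 group. For chi1 that order held by a small margin, at 48.9% in WT V9 and 26.2% in zb10 V9 leaf against 24.2% in the white V4 section. It did not hold for a1, which varied by 36.8% in WT V9 and by 99.0% in WT V4 leaf.

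The edgeR log2 fold changes at V9 were -0.10 for c2 (95% interval -0.87 to 0.67), 0.18 for whp1 (-1.57 to 1.93), -0.11 for chi1 (-0.91 to 0.69), -0.16 for pr1 (-1.70 to 1.38) and -0.55 for a1 (-2.26 to 1.16). Adjusted p-values ran from 0.89 to 0.97, and the signs of c2, whp1, chi1 and pr1 turned on leaving out single libraries. These intervals are wide, and they include changes of 1.5-fold either way for each of these 5 genes. The other 2 genes fell under the filter on low counts: a2 had 6 counts over the zb10 libraries and 6 over the WT libraries, and bz1 had 9 and 19. Over all genes 0.046% were called at V9, and DESeq2 called 0 of the 7 genes, as did edgeR, whose unadjusted p was also above 0.05 for the 5 genes tested.

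Whether the mutant effect differed between V9 leaf and the white V4 section was tested as an interaction, and 0 of the 7 genes passed (9.61% of all genes did). Lowest in p was bz1, whose effect was lower at V9 by a log2 difference of -2.54 (SE 1.22, unadjusted p = 0.059, adjusted p = 0.21), followed by a1 with -1.90 (SE 1.13, unadjusted p = 0.12, adjusted p = 0.31). The intervals were wide, from -5.20 to 0.11 for bz1 and from -4.38 to 0.57 for a1. DESeq2 also called 0 of the 7. Because the V9 labels name no section, stage and section change together in this contrast.

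For c2, whp1, chi1, pr1 and a2 the leaf log2 fold changes between stages were larger in size than those between genotypes or sections. In WT leaf 5 of the 7 genes were lower at V9 than at V4, where 21.3% of all genes were called lower and 44.6% in either direction. The level of whp1 was 2.0, 2.92 and 0.826 CPM in WT V9 libraries, against 139, 149 and 164 CPM in WT V4 libraries. Even the highest V9 library was far below every V4 library, and the log2 fold change was -6.27 (SE 0.58, adjusted p = 1.3e-06). For c2 the V9 libraries had 55.7, 43.6 and 39.2 CPM and the V4 libraries 357, 415 and 439.7 CPM, and the log2 fold change was -3.09 (SE 0.28, adjusted p = 9.7e-07). The pr1 mean was 38.0 ± 21.5 CPM at V9 and 258 ± 34.8 CPM at V4 (SD, n = 3 each), for a log2 fold change of -2.73 (SE 0.53, adjusted p = 0.00081 in edgeR). The level of chi1 fell less, to 29.1 ± 14.2 CPM at V9, against 85.3 ± 7.16 CPM at V4 (SD, n = 3 each), for a log2 fold change of -1.52 (SE 0.29, adjusted p = 0.00069 in edgeR). The median log2 fold change was -2.73 over the 7 genes and 0.05 over all genes.

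Among the last steps, a2 was nearly absent from V9 leaf. WT V9 libraries held 0, 6 and 0 counts, against 41, 42 and 123 counts in WT V4 libraries, for a V9 over V4 ratio of 0.0152 with 95% counting limits of 0.00552 and 0.0337 (edgeR adjusted p = 0.00077). This ratio pools the counts, and that of the mean CPM, which weights libraries equally, was 0.0325. All 6 V9 counts lay in replicate 2, so leaving out that library could only widen the difference. Without it a2 was at least 111-fold lower at V9, by a floor of 3 counts over the remaining V9 libraries. The call held on leaving out each library (edgeR adjusted p of 9.8e-05 to 0.0046). The size was less certain: the log2 fold change of -5.59 moved to between -9.45 and -4.45. By contrast a1 had 1.99, 0.923 and 1.43 CPM at V9 and 0.459, 1.52 and 4.69 CPM at V4, and its interval from -2.21 to 1.09 includes 0 (adjusted p = 0.59). Without WT V4 replicate 3 the sign of its log2 fold change turned, to 0.57. The level of bz1 was 0.0896, 0.0308 and 0.134 CPM at V9 and 0.230, 0.310 and 0.450 CPM at V4. The ranges did not overlap, but bz1 missed the threshold (log2 fold change -1.84, SE 0.82, adjusted p = 0.083), except with DESeq2 (adjusted p = 0.038).

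In zb10, with V9 leaf set against the green V4 section and so with no library shared with the WT contrast, c2, whp1, chi1, pr1 and a2 were likewise lower at V9. Log2 fold changes were -6.72 (SE 0.59) for whp1, -3.70 (SE 0.29) for c2, -2.78 (SE 0.53) for pr1 and -1.33 (SE 0.29) for chi1, with adjusted p-values of 2.7e-07 to 0.0019. For a2 the zb10 V9 libraries held 6, 0 and 0 counts and the green libraries 61, 64 and 72, for a ratio of 0.0212 with 95% counting limits of 0.00769 and 0.0470 (edgeR adjusted p = 0.00080). Leaving out zb10 V9 replicate 1, which held those 6 counts, could only widen the difference. Without it a2 was at least 57.0-fold lower at V9 by the same kind of floor. The log2 fold change of a2 was -5.47, and it ran from -9.38 to -4.94 on leaving out single libraries. Neither a1 (log2 fold change -0.76, SE 0.79, adjusted p = 0.46) nor bz1 (-1.91, SE 0.87, adjusted p = 0.090) passed. The background was again 21.3% of genes called lower, of 44.7% called. Counting limits cover counting error only, because they pool the counts of a group and so leave out the spread between libraries. They also take each count as a separate molecule. No molecular identifiers are named that would tell PCR copies of one molecule apart.

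**Figure D3:**
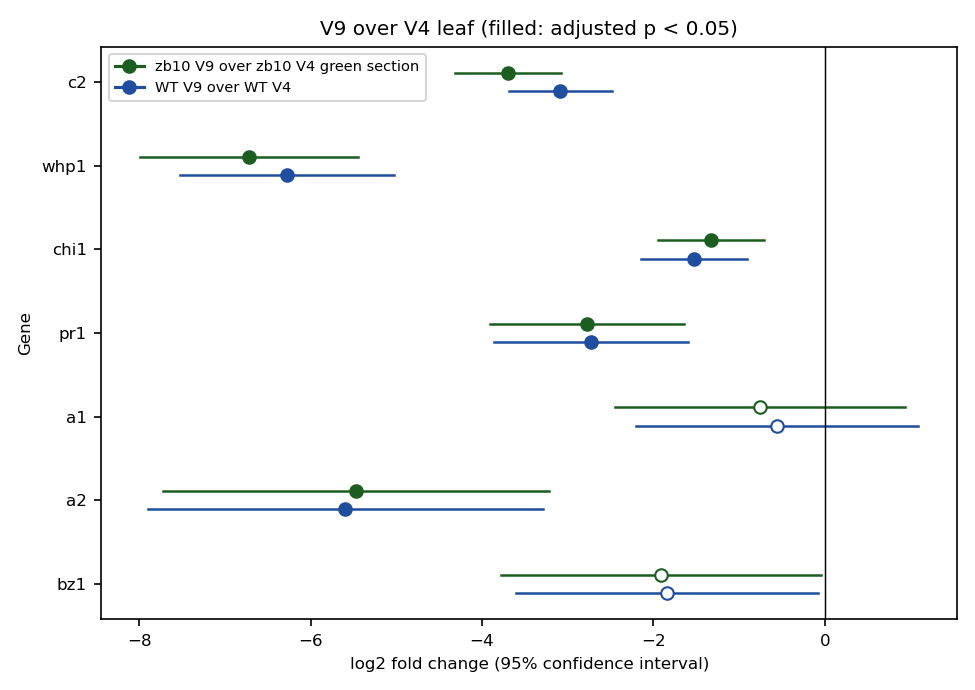
Log2 fold changes with 95% confidence intervals of the 7 genes for V9 over V4 leaf, in zb10 (V9 over the green V4 section) and in WT (filled symbols, adjusted p under 0.05). In both genotypes whp1 lies lowest, near -6.3 in WT, chi1 shows the smallest called change and a1 overlaps 0.

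The chalcone synthase genes shifted in proportion to each other with stage. Counts of whp1 made up 6.21%, 1.99% and 3.96% of the summed c2 and whp1 counts in zb10 V9 libraries, and 3.47%, 6.28% and 2.06% in WT V9 libraries. At V4 the shares were 27.3%, 27.8% and 25.4% in the white section, 29.7%, 28.3% and 30.2% in the green section and 27.99%, 26.4% and 27.2% in WT. Every V4 library was thus above every V9 library, and 95% binomial intervals (exact Clopper-Pearson) of single libraries were at most 5.11% to 7.62% at V9 and 25.8% to 27.0% in the lowest WT V4 library. In WT the log2 ratio of whp1 to c2 differed by -3.33 between V9 and V4, and in zb10 by -3.45 between V9 and the green section (two-sided exact permutation p = 0.1 for each, the smallest that 3 against 3 libraries allow). The green section had a slightly higher ratio than WT (log2 difference 0.16, exact permutation p = 0.1), and the white section did not separate from WT (-0.03, exact permutation p = 0.7). These genes encode the same kind of enzyme, and their sequences were not compared here. How the authors' counting treats reads that match both is not given in the sources used here, so the split between them is uncertain. With their counts summed, the log2 fold change of the sum was 0.56 for green over WT (adjusted p = 0.076) and -0.37 for white over green (adjusted p = 0.047).

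**Figure D4:**
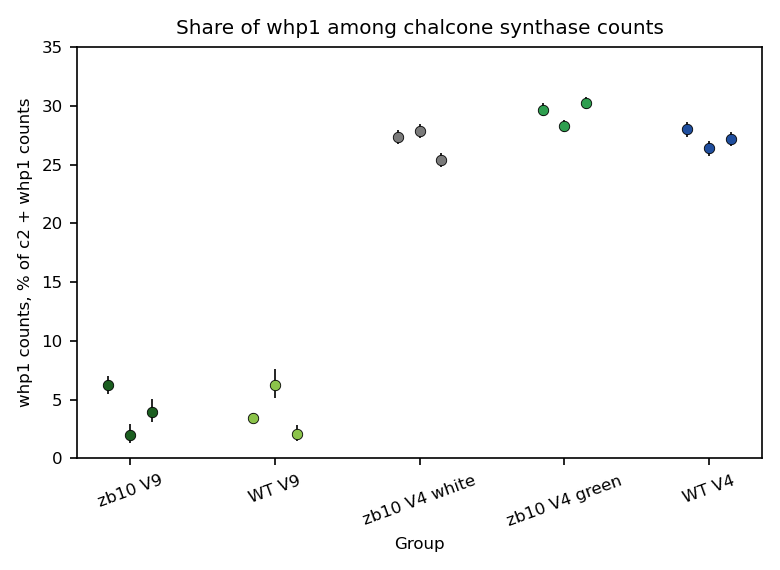
Counts of whp1 as a percent of the summed c2 and whp1 counts in each leaf library, with exact 95% binomial intervals as error bars. Shares lie between 25.4% and 30.2% at V4 and between 1.99% and 6.28% at V9.

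Endosperm held little transcript of the pathway in either genotype. No count of whp1 or a1 was found in any endosperm library, which allows up to 0.0362 CPM over the zb10 group and 0.0313 CPM over the WT group. For c2 there were 4, 0 and 0 counts in the zb10 libraries and 0 in each WT library. For pr1 there were 8, 0 and 0 counts in zb10 and 3, 0 and 0 in WT. All endosperm counts of c2 and pr1 thus came from the libraries numbered 1. The median level of the 100 most abundant V9 leaf transcripts, as a percent of their V9 leaf level, was 0.167% and 0.158% in those libraries and ran from 0.0515% to 0.165% in the other endosperm libraries, and the part of such leaf traces in these counts was not tested.

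The isomerase gene chi1 was present at a low level throughout the endosperm libraries. It had 33, 17 and 30 counts in zb10 and 32, 18 and 36 counts in WT, which is 0.967 ± 0.297 CPM in zb10 and 0.885 ± 0.215 CPM in WT (SD, n = 3 each). These levels were 2.28% to 4.39% of the V9 leaf level of chi1, above the median percent of abundant leaf transcripts in each library. The genotypes overlapped (log2 fold change 0.17, 95% interval -0.81 to 1.14, adjusted p = 0.98). For a2 there were 16, 2 and 7 counts in zb10 and 16, 4 and 20 counts in WT (log2 fold change -0.44, 95% interval -2.24 to 1.37, adjusted p = 0.96). For bz1 there were 10, 1 and 7 counts in zb10 and 4, 11 and 8 in WT, under the filter on low counts. Thus 2 of the 7 genes were tested for genotype and 0 were called by edgeR or DESeq2, with unadjusted p of 0.71 and 0.59 in edgeR, where 0.0355% of all genes were called.

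Relative to WT V9 leaf, WT endosperm was lower in 5 of the 6 genes tested (38.3% of all genes were called lower and 76.4% in either direction). Taking 3 counts per group as the floor, and the lower of the bounds from pooled counts and from mean CPM, c2 was at least 1474-fold lower, whp1 at least 60.4-fold lower and a1 at least 46.2-fold lower in endosperm. The pr1 ratio was 0.000949 (95% counting interval 0.000196 to 0.00277), and chi1 had a log2 fold change of -5.04 (SE 0.40, adjusted p = 2.9e-07). The values of a2 and bz1 pointed the other way. The anthocyanidin synthase gene a2 had 16, 4 and 20 counts in WT endosperm and 0, 6 and 0 in WT V9 leaf. That is a ratio of 14.7 from pooled counts (95% counting interval 6.20 to 42.4) and of 6.53 from mean CPM, and it did not pass in edgeR (log2 fold change 3.0, SE 1.53, adjusted p = 0.093). Of 13 alternatives in edgeR or DESeq2, 2 called a2, and adjusted p ran from 0.0079 to 0.24. The calls came with all 21 libraries in the fit (adjusted p = 0.013) and without WT V9 replicate 2 (adjusted p = 0.0079). That leaf library held all 6 counts, so leaving it out could only widen the difference. Without it a2 was at least 23.9-fold higher in endosperm. For bz1, under the filter on low counts, 23 counts in WT endosperm stood against 19 in WT V9 leaf, 12 of them in replicate 1. The pooled ratio was 2.67 (95% counting interval 1.39 to 5.18), and this interval leaves out the spread between libraries. The libraries overlapped, at 0.129, 0.390 and 0.220 CPM in WT endosperm and 0.0896, 0.0308 and 0.134 CPM in WT V9 leaf. So a difference in bz1 was not tested. The interaction of genotype with V9 leaf and endosperm was called for 0 of the 4 genes with a value (unadjusted p of 0.16 to 0.95, 0.0392% of all genes called).

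Ordered by level, the groups fell in different sequences for early and late genes. Both chalcone synthase genes ran from the green section, the white section and WT at V4 to V9 leaf and then endosperm, and for whp1 the white section and WT V4 overlapped. For chi1 and pr1, WT V4 stood first, and neighbouring V4 groups overlapped. The genes a1, a2 and bz1 all had their highest mean in the white section, at 5.78 ± 2.53, 7.17 ± 2.95 and 1.47 ± 0.614 CPM (SD, n = 3 each). After the white section, the green section and WT V4 overlapped each other for all of a1, a2 and bz1.

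Across the 9 V4 libraries, the 7 genes fell into 3 sets by their correlation of log2(CPM + 0.5), a description over libraries that share section and genotype differences. The pair c2 and whp1 correlated at 0.96, the pair chi1 and pr1 at 0.81, and a1, a2 and bz1 at 0.84 to 0.91 with each other. Among 30385 other genes, whp1 ranked 2 by correlation with c2, and pr1 ranked 664 with chi1. With a1, a2 ranked 16 and bz1 167, while with bz1, a2 ranked 1327 and a1 1879. For chi1 and bz1, many genes outside the list thus correlated more closely than these members. Between a1, a2 or bz1 and the other 4 genes, r ran from -0.55 to 0.07, with 2 of 12 values above 0. The lowest value, -0.55, was between a2 and pr1. Over the 15 leaf libraries all 21 pairs were positive, from 0.42 to 0.996, and the V4 and V9 libraries there lie in separate clusters for c2, whp1, pr1 and a2. In that wider set whp1 was the gene most correlated with c2 among 30960 genes, and c2 the gene most correlated with whp1.

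**Figure D5:**
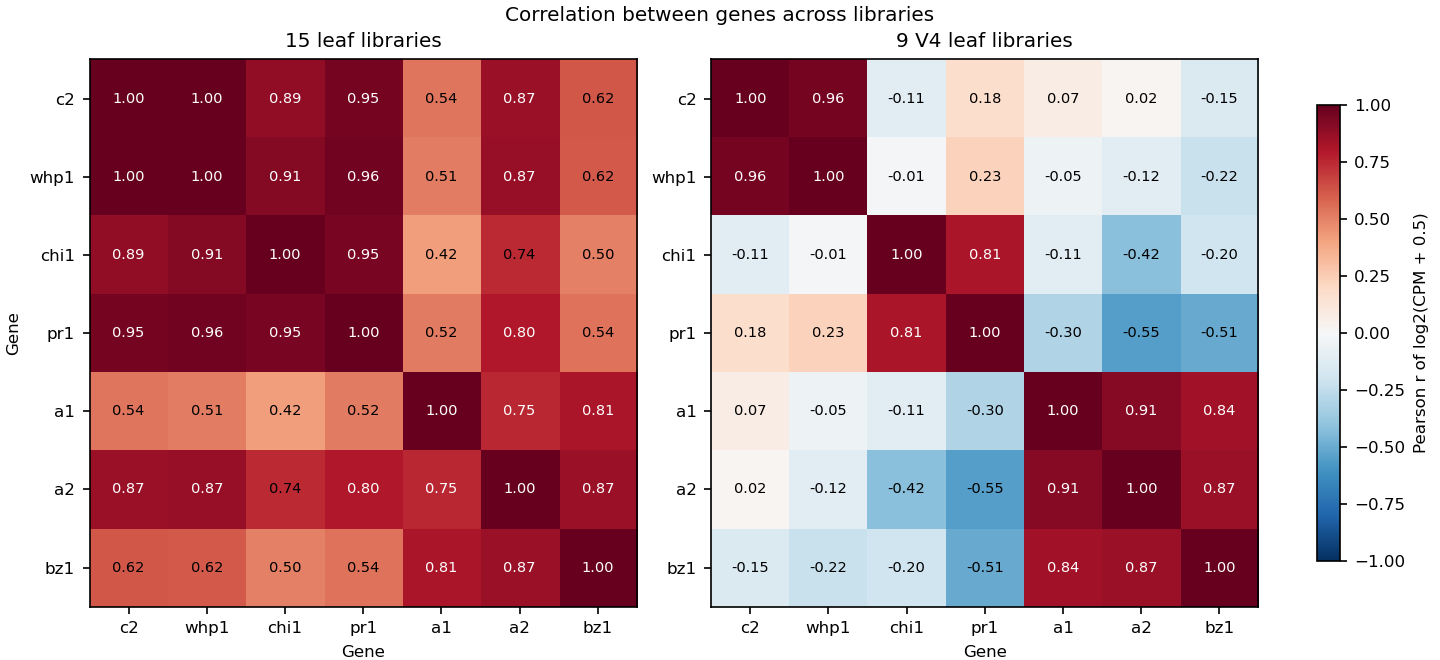
Pearson correlation of log2(CPM + 0.5) between the 7 genes over the 15 leaf libraries (left) and over the 9 V4 leaf libraries (right). At V4 the chalcone synthase pair, the pair chi1 and pr1, and the set a1, a2 and bz1 each correlate within themselves, at 0.81 or above, while values between a1, a2 or bz1 and the other genes do not exceed 0.07.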

How the data were processed

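The authors deposited raw counts per gene in 1 table of 50142 IDs (39323 reference-style, 10819 newGene loci). Per the labels' protocols, RNA came from a column kit and libraries from a SMARTer mRNA kit. For aligner, counter, genome build and strand setting, the sources used here name none. Table columns say zb9 where labels say zb10 and 3L where they say V4; each was matched to the single labelled group that fits, and 0 columns were left over. No replicates agreed within sampling noise (chi-square per degree of freedom of 18.8 or more). Replicates are biological per the series' design text.

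All genes went through the quasi-likelihood F-test of edgeR (version 4.0.16, run under R 4.3.3) with TMM scaling and filterByExpr (minimum count 10, minimum total 15). V4 groups were fitted together, V9 and endosperm apart, stage contrasts over 15 leaf libraries, endosperm against V9 over those 4 groups, and interactions over the groups involved. SE and intervals are those implied by the F-test. DESeq2 1.42.0, other scalings and filters, a replicate block, other fit sets and leaving out each library were alternatives. The fits were tested on simulated data. All 7 members are named, and members, lists and tests were chosen with earlier results of these data known; early and late sets and the V4 correlations were chosen after the values were seen.

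Same-numbered white and green libraries deviated together (correlations of 0.18, 0.17 and 0.37 across genes, each over 0.1). The labels only number the samples, so this pairing entered only the alternative fit with a replicate block. The white over green values given come from the fit without that block, which treats the sections as unpaired. With the block, edgeR called the same members, at adjusted p = 0.018 for whp1, 0.017 for a2 and 0.018 for bz1. Over all genes, calls between these sections fell to 6087 from 6552.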

Additional observations from a re-analysis of the deposited data

How the results depend on the processing

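Of 936 values of single genes under alternatives, 872 kept their direction and side of the threshold, 14 lost a call, 16 gained one and 34 changed sign, all 34 uncalled before and after. The V9 over V4 counts and that of endosperm over V9 (5 called each) were 5 or 6, except 4 with c2 and whp1 summed into 1 feature. For white over WT (2 called), library size alone gave 4, DESeq2 4, at least 1 CPM in 3 libraries 1 (bz1 untested) and all 21 libraries 0. Library size alone moved the median of all genes to 0.14 and the share of calls that were higher to 69.0% from 52.8%; for white over green to 0.12 and 73.5% from 55.2%; for the V9 minus white interaction to -0.11 and 29.3% from 49.1%. It called c2 and whp1 in white over WT at 0.33 and 0.31, or about 0.19 and 0.17 relative to that shift. For green over WT (1 called), DESeq2 gave 2, all 21 libraries 0, c2 and whp1 summed 0, the replicate block 0 (whp1 adjusted p = 0.060) and leaving out a library 0 to 0; numbers of green and WT libraries did not pair. For white over green (3 called), DESeq2 gave 5, all 21 libraries 0 and the replicate block 3.

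Leaving out 1 library at a time, sign changes among uncalled log2 fold changes gave these ranges. Green over WT: a2 -0.29 to 0.77, pr1 -0.21 to 0.010, a1 -0.85 to 0.81. V9 genotype: c2 -0.56 to 0.17, whp1 -0.90 to 0.64, chi1 -0.33 to 0.39, pr1 -1.08 to 0.42. Endosperm genotype: chi1 -0.052 to 0.37. WT V9 over V4: a1 -1.04 to 0.57. V9 minus white interaction: whp1 -1.06 to 0.52, a2 -5.76 to 2.15, pr1 -0.67 to 0.84. Endosperm minus V9 interaction: a2 -4.34 to 3.72, chi1 -0.20 to 0.46, pr1 -3.47 to 5.33. Other sign changes were whp1 at V9 with the replicate block (-0.0058) or summed with c2 (-0.088), whp1 in the V9 minus white interaction with library size alone (-0.029) or summed (-0.23), and a2 in the endosperm interaction with the replicate block (0.22). The causes were not tested. The median correlation between members was 0.81 over 21 libraries, 0.80 over the 15 leaf libraries and -0.051 over the 9 V4 libraries, the last chosen after seeing the data. The counts of a2 and bz1 at V9 and of most members in endosperm limit any genotype statement there.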

Other observations

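Over all 21 libraries, the gene IDs whose log2(CPM + 0.5) followed the mean standardised pattern of the 7 genes most closely, among 32302 genes, were Zea_mays_newGene_13427 (r = 0.99) and Zm00001d050637 (r = 0.98). Neither is named in the files, and the libraries share the contrast of V4 leaf with the other samples.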
